A study of Mus musculus with 16 samples.

Results

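Kupffer cells and other myeloid cells of the liver were followed through 32 genes, chosen by symbol as markers of resident Kupffer cells, of macrophages in general or of myeloid cells that enter the liver from blood. These genes were chosen with earlier results of these data known. All 32 were among the 35502 genes of the count table, and 31 had enough reads to be tested. Gpnmb did not, with 0 to 8 counts per library. The data are RNA-seq gene counts from the livers of 16 individual mice, 1 library per mouse, in 4 groups of 4. The study compared a liver-specific knockout of oestrogen receptor alpha, abbreviated LERKO, with controls at 2 labelled stages, mature and immature. Mature and immature controls carry the floxed allele without Cre, and mature and immature LERKO mice carry Cre as well, so the floxed allele is common to all 4 groups. In the labels the groups are Mat.Con, Mat.LERKO, Imm.Con and Imm.LERKO. Strain, age, sex, the Cre driver and the floxed exon were not given there, and the stage may describe the animals when Esr1 was deleted or when the liver was taken. Libraries are numbered 1 to 4 within a group, in deposit order, and same-numbered libraries are not pairs.

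Kupffer cells are the resident macrophages of the liver. They sit in the sinusoids, take up particles, bacteria and worn red cells from portal blood, and maintain themselves largely by local division. Monocytes can enter from blood through the chemokine receptor Ccr2, mostly after injury, and become macrophages that at first lack the resident markers. Dendritic cells and B cells share the MHC class II genes with macrophages, and the receptor tyrosine kinase Csf1r is needed for survival of most macrophages.

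Macrophage promoters commonly bind PU.1, the lineage factor encoded by Spi1, at purine-rich sites with the core GAGGAA, so promoters are shown for Clec4f, a defining Kupffer cell gene, and for the genes whose ratio to Clec4f varied least between libraries (Vsig4, C1qb, C1qc, Folr2 and Ctss), chosen after their values were seen. Promoter windows of 300 bases, from 250 before to 50 after the annotated start, come from RefSeq on GRCm38.p6, and 26 of the 32 genes had at least 1 window, 28 windows in all. Sequences are written 5′ to 3′ on the strand of the gene, and capitals mark GAGGAA or its longer form GAGGAAGT, which contains it, on either strand (TTCCTC and ACTTCCTC on the opposite one). Clec4f, at chr6:83656067-83656366 on the minus strand, has 0 matches.
Clec4f: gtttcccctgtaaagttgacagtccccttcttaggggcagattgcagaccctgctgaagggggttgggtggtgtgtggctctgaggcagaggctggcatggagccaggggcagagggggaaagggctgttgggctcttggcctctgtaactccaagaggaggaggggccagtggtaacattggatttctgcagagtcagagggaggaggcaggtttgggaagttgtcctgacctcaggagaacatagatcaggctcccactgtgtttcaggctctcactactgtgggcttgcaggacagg
Folr2 has 2 windows, at chr7:101845282-101845581 and chr7:101857141-101857440 on the minus strand, and both have 0 matches.
Folr2, first window: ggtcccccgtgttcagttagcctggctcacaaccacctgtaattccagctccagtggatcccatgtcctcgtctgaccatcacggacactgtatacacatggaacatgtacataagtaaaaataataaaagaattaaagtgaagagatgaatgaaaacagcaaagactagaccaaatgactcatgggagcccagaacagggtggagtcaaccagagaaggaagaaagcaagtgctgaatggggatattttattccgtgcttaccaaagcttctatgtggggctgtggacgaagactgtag
Folr2, second window: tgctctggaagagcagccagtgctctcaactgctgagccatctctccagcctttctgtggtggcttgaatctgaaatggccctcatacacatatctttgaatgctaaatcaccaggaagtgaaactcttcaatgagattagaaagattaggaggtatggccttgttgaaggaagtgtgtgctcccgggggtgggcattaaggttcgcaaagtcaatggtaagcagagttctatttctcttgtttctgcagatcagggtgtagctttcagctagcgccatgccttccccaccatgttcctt
Vsig4, at chrX:96293389-96293688 on the minus strand, has 2 matches.
Vsig4: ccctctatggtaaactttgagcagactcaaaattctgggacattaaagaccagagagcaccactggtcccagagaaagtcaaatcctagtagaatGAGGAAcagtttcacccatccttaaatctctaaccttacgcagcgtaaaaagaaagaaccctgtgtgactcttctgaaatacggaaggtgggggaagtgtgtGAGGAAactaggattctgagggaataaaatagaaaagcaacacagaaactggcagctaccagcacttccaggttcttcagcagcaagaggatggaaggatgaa
C1qb and C1qc, at chr4:136886151-136886450 and chr4:136892865-136893164 on the minus strand, have 1 match each.
C1qb: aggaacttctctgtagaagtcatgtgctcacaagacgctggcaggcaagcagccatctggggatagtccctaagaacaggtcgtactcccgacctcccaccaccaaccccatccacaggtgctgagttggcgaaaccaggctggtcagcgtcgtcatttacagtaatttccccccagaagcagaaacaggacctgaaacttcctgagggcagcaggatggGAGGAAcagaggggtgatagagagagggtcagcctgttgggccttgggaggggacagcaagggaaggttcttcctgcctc
C1qc: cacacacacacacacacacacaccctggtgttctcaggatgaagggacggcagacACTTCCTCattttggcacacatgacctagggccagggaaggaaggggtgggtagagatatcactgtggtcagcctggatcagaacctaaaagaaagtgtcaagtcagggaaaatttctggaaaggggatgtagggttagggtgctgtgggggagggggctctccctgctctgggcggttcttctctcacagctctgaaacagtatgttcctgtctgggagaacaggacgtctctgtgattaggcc
Ctss, at chr3:95526536-95526835 on the plus strand, has 2 matches.
Ctss: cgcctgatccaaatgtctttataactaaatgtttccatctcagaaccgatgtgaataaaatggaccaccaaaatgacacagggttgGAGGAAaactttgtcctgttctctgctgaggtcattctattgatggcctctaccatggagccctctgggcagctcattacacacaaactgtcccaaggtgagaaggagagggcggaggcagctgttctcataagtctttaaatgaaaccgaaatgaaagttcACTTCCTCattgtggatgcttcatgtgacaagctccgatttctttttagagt
GAGGAA was found in 12 of the 28 windows (42.9%), against 28.3% of all 32851 promoters of the table. GAGGAAGT was found in 2 of 28 (7.14%), those of C1qc and Ctss, against 3.2% of all promoters. Among these windows Itgam had the most matches of GAGGAA, 3. These are matches of letters and not measured sites.

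Esr1, the gene of oestrogen receptor alpha, was read first as a check of the labels. It stood at 82.2 ± 19.1 CPM in mature control and 16.3 ± 2.19 in mature LERKO livers, and at 73.6 ± 15.8 and 12.99 ± 2.19 CPM in the immature groups (SD, n = 4). CPM is a library's count at 1 shared sequencing depth, with TMM factors applied so that libraries are comparable. In mature mice Esr1 fell by 2.33 in log2 units (adjusted p = 1.57e-05, edgeR quasi-likelihood test, Benjamini-Hochberg over 13379 genes) and by 2.50 in immature mice (adjusted p = 6.55e-06). Total counts ran from 18123974 to 23213905 per library.

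Several libraries stood apart from the rest, and the main counts and medians are also given without them. Mature LERKO library 4 had a summed level of 10 acute-phase genes of 99910 CPM against 9704 to 13740 in the other 15 libraries, and of 10 neutrophil markers of 101.5 CPM against at most 4.37. Its sum of 12 endothelial markers was 126.7 CPM and of 10 stellate markers 129.5 CPM, the lowest of all libraries. Of the 31 tested genes, 15 had their highest level in this library. That number was also 15 with RLE factors, another scaling, and was 5 when libraries were scaled by their total alone. The height of this library thus partly depends on the scaling, and its TMM factor was the lowest, at 0.852. Immature control library 3 had the lowest level of 21 of the 31 genes, and 20 with the library total alone. Skeletal muscle transcripts reached 653, 250 and 38.4 CPM in mature control libraries 1, 2 and 4 and 106 CPM in immature LERKO library 4, against at most 1.88 CPM elsewhere.

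The labelled tissue carried Kupffer cell transcripts in every library. Clec4f, a lectin receptor made in the liver by Kupffer cells, had at least 779 counts per library. Per kb of merged exon, the level averaged over 16 libraries was 41.7 CPM for C1qa, 38.5 for Cd74, 35.8 for Cd5l, 32.8 for C1qb, 30.5 for Lyz2 and 29.4 for Clec4f. These are the highest levels per kb, and the resident genes ran from Cd5l down to 2.51 for Timd4, 2.26 for Cd163 and 0.292 for Spic. On the same scale the genes of monocytes and dendritic cells were at 0.198 CPM for Itgax, 0.194 for Itgam, 0.164 for Ccr2 and 0.114 for Cx3cr1. Trem2, a lipid receptor of macrophages in injured liver, stood at 0.167 and Gpnmb, a glycoprotein of lipid-laden macrophages, at 0.028 CPM per kb. Gpnmb was not detected in immature control library 2, where a count of 0 allows up to 0.155 CPM (3 counts, for counting error only). Because these are pieces of whole liver, fewer cells of a type and less RNA per cell cannot be told apart.

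**Figure D1:**
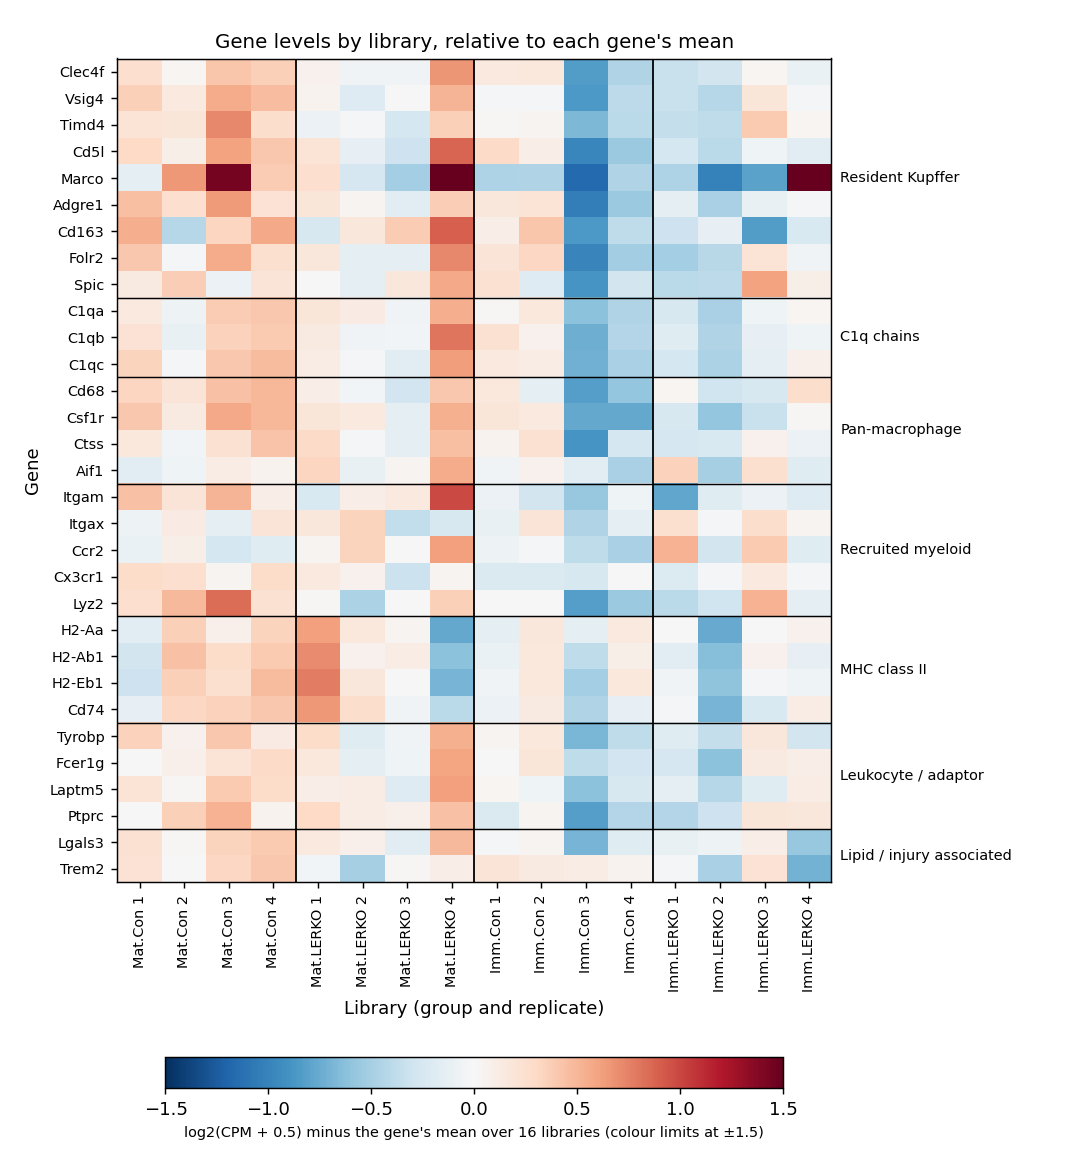
Each row is a tested gene and each column a library, and the colour is log2(CPM + 0.5) minus the mean of that gene over 16 libraries, with genes grouped by role. Immature control library 3 is the lowest for 21 of 31 genes and mature LERKO library 4 the highest for 15, while its MHC class II genes are low.

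Resident Kupffer genes were higher in mature than in immature controls, without passing the test across all genes. The 9 genes are Clec4f and the complement receptor Vsig4, the phosphatidylserine receptor Timd4, the secreted scavenger protein Cd5l, the scavenger receptor Marco, the adhesion receptor Adgre1 that carries the F4/80 epitope, the haemoglobin receptor Cd163, the folate receptor Folr2, and the transcription factor Spic. Clec4f (ENSMUSG00000014542, chr6:83644542-83656187) was at 83.8, 71.8, 94.5 and 90.7 CPM in mature control libraries 1 to 4, and at 78.2, 78.6, 39.1 and 51.4 CPM in immature controls. In mature LERKO libraries it was at 73.7, 67.7, 68.0 and 111.9 CPM, and in immature LERKO libraries at 56.0, 58.2, 72.1 and 65.7 CPM. The groups overlapped, with immature control libraries 3 and 4 lowest of all 16.

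Vsig4 (ENSMUSG00000044206, chrX:96247203-96293438), whose promoter is shown above, was at 23.7, 20.4, 27.2 and 25.4 CPM in mature controls and at 18.1, 18.2, 9.84 and 13.9 CPM in immature controls. In LERKO mice it was at 19.1, 15.98, 18.3 and 26.3 CPM in mature and at 14.4, 13.5, 20.8 and 18.2 CPM in immature libraries. Every mature control lay above every immature control, while the LERKO groups overlapped. Cd5l was at 85.9, 74.2, 105.5 and 92.3 CPM in mature controls and at 84.9, 74.7, 35.2 and 47.0 CPM in immature controls. The Cd5l groups overlapped, and immature control libraries 1 and 2 reached the level of mature ones.

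Marco was the most variable of the 32 genes except Gpnmb, with levels from 2.01 to 15.5 CPM. It was at 4.57, 8.32, 14.8 and 6.82 CPM in mature controls and at 3.58, 3.62, 2.01 and 3.63 CPM in immature controls. It was at 6.19, 4.22, 3.45 and 15.5 CPM in mature LERKO livers and at 3.59, 2.29, 2.73 and 15.5 CPM in immature LERKO livers. A single library in each LERKO group was far above the other 3, library 4 in both cases. The smaller resident genes were, in mature and immature controls, at 12.4 ± 1.79 and 7.94 ± 3.23 CPM for Adgre1, 14.5 ± 4.16 and 10.8 ± 4.20 for Cd163, and 8.99 ± 1.57 and 6.36 ± 2.69 for Folr2 (SD, n = 4). Timd4 was at 6.94 ± 1.43 and 4.45 ± 1.15 CPM and Spic at 1.26 ± 0.228 and 0.843 ± 0.408 CPM in the same groups. In mature and immature LERKO livers Adgre1 was at 10.2 ± 1.65 and 8.16 ± 1.15 CPM, Cd163 at 15.1 ± 5.21 and 9.01 ± 1.89, Folr2 at 8.26 ± 2.67 and 6.32 ± 1.58, Timd4 at 5.34 ± 1.12 and 5.10 ± 1.48, and Spic at 1.27 ± 0.400 and 1.11 ± 0.570 CPM. Folr2 shares exon bases with an antisense gene of 178 counts against its own 2406.

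C1qa, C1qb and C1qc encode the chains of C1q, the recognition molecule of the classical complement pathway, and lie within 18.7 kb on chromosome 4 (chr4:136880129-136898803). C1qb was at 40.2, 32.1, 44.2 and 45.6 CPM in mature controls and at 40.8, 36.3, 20.7 and 25.4 CPM in immature controls. In LERKO mice it was at 38.0, 33.3, 33.7 and 60.9 CPM in mature and at 30.4, 25.2, 31.7 and 33.2 CPM in immature livers. The controls overlapped, and every mature LERKO library lay above every immature LERKO library, with 33.3 and 33.2 CPM as the closest pair. C1qa was at 49.8 ± 7.54, 49.3 ± 8.995, 37.1 ± 9.42 and 37.5 ± 5.83 CPM, and C1qc at 43.9 ± 6.32, 39.8 ± 10.3, 30.9 ± 9.11 and 30.9 ± 5.01 CPM, in mature control, mature LERKO, immature control and immature LERKO livers (SD, n = 4).

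The general macrophage genes are the lysosomal glycoprotein Cd68, the receptor Csf1r, the lysosomal protease Ctss and the actin-binding protein Aif1. Cd68 was at 10.7, 9.76, 11.6 and 12.2 CPM in mature controls and at 9.49, 7.64, 4.57 and 5.50 CPM in immature controls. In LERKO livers it was at 9.14, 8.22, 6.85 and 11.4 CPM in mature and at 8.65, 6.77, 7.08 and 10.2 CPM in immature ones. The control groups did not overlap and the LERKO groups did. Csf1r was at 46.3 ± 5.85, 39.9 ± 7.86, 29.6 ± 10.8 and 28.7 ± 5.02 CPM in the same order of groups as C1qa, and it shares 873 exon bases with Hmgxb3 on the opposite strand. Ctss was at 32.7 ± 4.43, 31.7 ± 6.04, 25.3 ± 7.90 and 26.0 ± 2.74 CPM, and Aif1 at 3.20 ± 0.306, 3.86 ± 0.899, 2.87 ± 0.536 and 3.27 ± 0.975 CPM.

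The genes of recruited myeloid cells are the integrins Itgam and Itgax, the chemokine receptors Ccr2 and Cx3cr1, and lysozyme Lyz2. Lyz2 alone makes up most of their summed level, and Kupffer cells express it too. Lyz2 (ENSMUSG00000069516, chr10:117277331-117282321) was at 45.9, 53.9, 69.0 and 45.0 CPM in mature controls and at 38.4, 38.6, 21.5 and 25.9 CPM in immature controls. It was at 38.8, 27.6, 38.6 and 49.2 CPM in mature LERKO and at 28.8, 31.0, 55.3 and 34.8 CPM in immature LERKO livers. Every mature control lay above every immature control, and the LERKO groups overlapped. Its paralogue Lyz1 had at most 4 counts per library, against at least 427 for Lyz2.

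Ccr2, the receptor through which monocytes leave the marrow and enter tissue, was at 0.965, 1.16, 0.804 and 0.883 CPM in mature controls and at 1.12, 1.48, 1.07 and 1.90 CPM in mature LERKO livers. Immature controls stood at 0.985, 1.03, 0.703 and 0.624 CPM, and immature LERKO livers at 1.75, 0.800, 1.56 and 0.882 CPM. Both LERKO groups had the higher mean and overlapped their controls. Itgam was at 1.27 ± 0.243, 1.28 ± 0.708, 0.701 ± 0.184 and 0.660 ± 0.230 CPM in mature control, mature LERKO, immature control and immature LERKO livers, with mature LERKO library 4 at 2.31 CPM. Its counts are uncertain, since 3450 of its 5024 exon bases are shared with Gm49368 on the same strand. Itgax was at 0.968 ± 0.159, 0.936 ± 0.331, 0.828 ± 0.240 and 1.08 ± 0.158 CPM, and Cx3cr1 at 0.665 ± 0.0862, 0.499 ± 0.134, 0.397 ± 0.0762 and 0.488 ± 0.1004 CPM. At these levels the lowest library had 6 counts of Cx3cr1 and 11 of Itgax.

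The MHC class II genes are H2-Aa, H2-Ab1 and H2-Eb1, which encode antigen-presenting chains within 59.0 kb of chromosome 17, and Cd74, the invariant chain. Cd74 was at 57.5, 78.1, 80.0 and 83.3 CPM in mature controls and at 99.0, 75.5, 60.3 and 47.2 CPM in mature LERKO livers. It was at 58.9, 68.9, 45.7 and 57.8 CPM in immature controls and at 61.3, 38.4, 53.5 and 67.7 CPM in immature LERKO livers. The groups overlapped, and mature LERKO library 4, high for most resident genes, was below the other 3 mature LERKO libraries for Cd74. H2-Aa was at 22.9 ± 3.93, 21.7 ± 8.07, 20.6 ± 2.57 and 18.5 ± 4.45 CPM in mature control, mature LERKO, immature control and immature LERKO livers. H2-Ab1 was at 29.3 ± 6.11, 27.5 ± 10.3, 24.1 ± 3.93 and 21.6 ± 4.27 CPM and H2-Eb1 at 20.5 ± 4.61, 19.6 ± 8.18, 17.1 ± 3.53 and 15.6 ± 2.84 CPM in that order.

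Leukocyte genes include the signalling adaptors Tyrobp and Fcer1g, the lysosomal protein Laptm5 and the phosphatase Ptprc (CD45), which most blood-derived cells express. Ptprc was at 7.21, 9.39, 10.6 and 7.53 CPM in mature controls and at 6.17, 7.44, 3.87 and 5.22 CPM in immature controls. The LERKO means were 8.62 ± 1.06 CPM for mature and 6.85 ± 1.60 CPM for immature livers (SD, n = 4). The control groups overlapped through immature library 2. Tyrobp was at 10.9 ± 1.32, 10.3 ± 2.47, 8.001 ± 2.22 and 8.201 ± 1.51 CPM, Fcer1g at 8.02 ± 0.785, 8.16 ± 2.06, 6.67 ± 1.28 and 6.57 ± 1.63 CPM, and Laptm5 at 19.1 ± 2.15, 18.6 ± 4.66, 14.0 ± 2.68 and 14.6 ± 2.34 CPM in mature control, mature LERKO, immature control and immature LERKO livers.

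The genes of injury-associated macrophages were low. Lgals3, the galectin-3 gene, was at 5.38 ± 0.655, 5.02 ± 1.06, 3.84 ± 0.908 and 3.99 ± 0.823 CPM, and Trem2 at 1.04 ± 0.184, 0.721 ± 0.206, 0.918 ± 0.0556 and 0.627 ± 0.325 CPM, in mature control, mature LERKO, immature control and immature LERKO livers. Gpnmb was at 0.236 ± 0.143, 0.218 ± 0.105, 0.0806 ± 0.0725 and 0.200 ± 0.0834 CPM.

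None of the 31 genes passed the adjusted p of 0.05 between mature and immature controls, and 0% of all genes did. All 31 had a positive log2 fold change of mature over immature controls, against 53.1% of all 13379 genes, with a median of 0.46 against 0.02 over all genes. An unadjusted p below 0.05 was reached by 17 of the 31, against 9.84% of all genes in either direction and 7.56% in the higher direction. DESeq2 gave 16 and limma-voom 18 genes at that level, against 10.6% and 9.4% of all genes. By role the median was 0.58 for resident genes, 0.42 for C1q chains, 0.51 for macrophage genes, 0.74 for recruited myeloid genes, 0.28 for MHC class II genes, 0.44 for leukocyte genes and 0.33 for Lgals3 and Trem2. In 8 genes every mature control lay above every immature control, against 6.11% of all genes. These were Vsig4, Timd4, Marco, Adgre1, Cd68, Itgam, Cx3cr1 and Lyz2. Immature control library 3 was among the 4 lowest libraries for 30 of the 31 genes, and immature control library 4 for 23. Because the genes move together by library, their signs and p-values are not independent, here and in the comparisons below. They were also chosen with earlier results known, so these counts cannot be set against chance.

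The smallest p-values of this comparison were those of Vsig4, at 0.69 on the log2 scale (SE 0.20, adjusted p = 0.26, edgeR), and of Cd68, with 0.70 (SE 0.21, adjusted p = 0.278, edgeR). Lyz2 followed with 0.78 (SE 0.24, adjusted p = 0.284, edgeR) and Ptprc with 0.61 (SE 0.20, adjusted p = 0.336, edgeR). Each was higher in mature controls, and none passed the correction. Immature control library 3 carried part of the difference: without it the median was 0.29, although all 31 log2 fold changes were still positive. An unadjusted p below 0.05 was then reached by 7 genes, against 9.83% of all genes. Without mature control library 3 also 7 reached it (7.6% of all genes), and without immature control library 4 11 (7.12% of all genes). Without mature control libraries 1 and 2 and immature LERKO library 4, which hold the most muscle transcripts, the median was 0.57. An unadjusted p below 0.05 was then reached by 13 genes, against 4.08% of all genes. Mature control library 4, with 38.4 CPM of muscle transcripts, was kept in that fit.

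Some marker lists of other liver cells also had mostly 1 sign in this comparison, with no gene called. All 12 endothelial markers had a positive log2 fold change, median 0.74, with summed levels of 301 to 436 CPM in mature and 200 to 304 CPM in immature controls. All 10 stellate markers did as well, median 0.56, and 2 of 10 hepatocyte markers, median -0.24. Cholangiocyte markers did not share the rise, with 2 of 7 positive and a median of -0.0083. Of dendritic markers 4 of 5 were positive (median 0.06), and of T and NK cell markers 8 of 10 (median 0.35). Neutrophil markers summed to 0.589 to 2.46 CPM in mature and 0.778 to 2.26 CPM in immature controls. Their part in the stage difference of the myeloid genes was not tested.

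**Figure D2:**
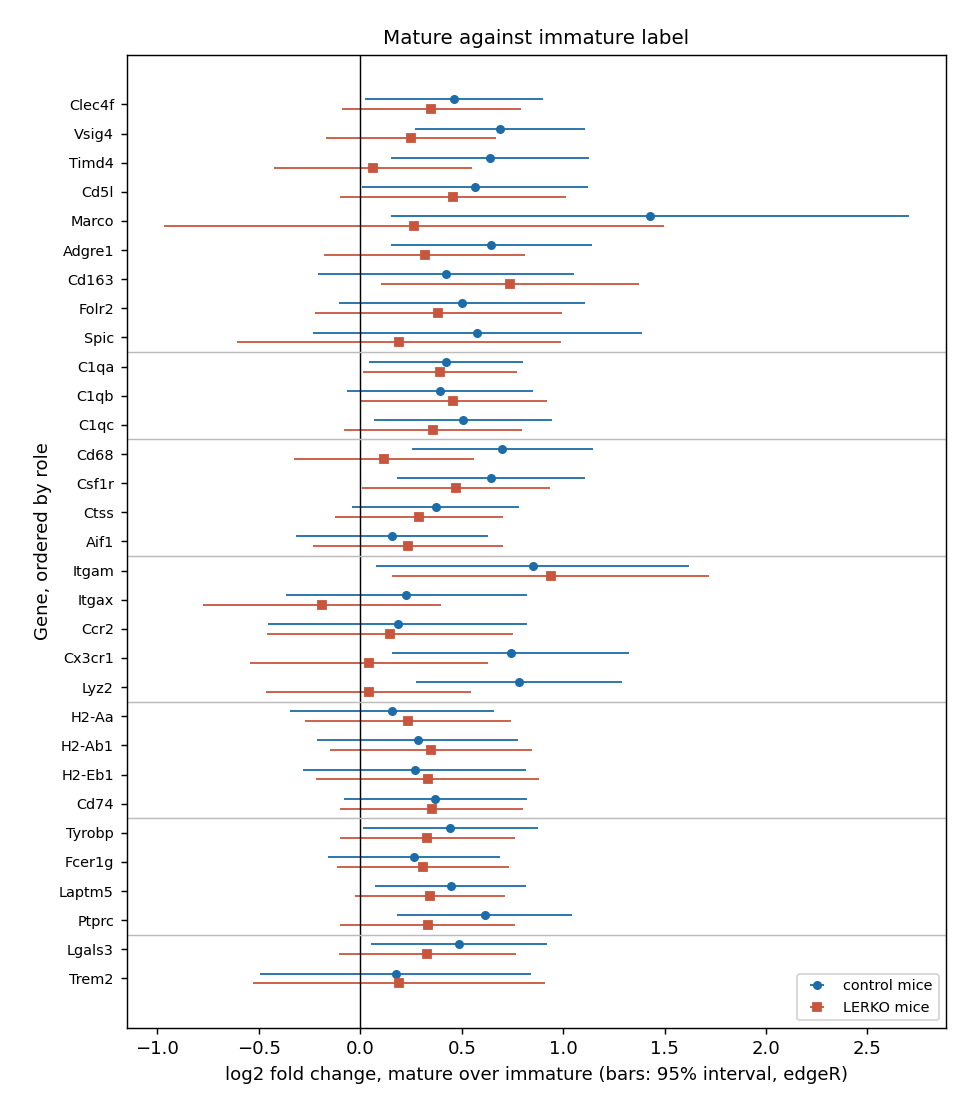
Points are log2 fold changes of mature over immature mice for each tested gene, in controls (circles) and LERKO mice (squares), and bars are 95% intervals from edgeR. All 31 control points and 30 of 31 LERKO points lie above 0, and no gene passed the adjusted p of 0.05.

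In LERKO mice the median stage difference had the same sign as in controls and was smaller, and the difference between the genotypes is tested further on. None of the 31 genes passed, nor did any gene of the table (0%). A positive log2 fold change was seen in 30 of 31 genes, against 50.4% of all genes, with a median of 0.33. An unadjusted p below 0.05 was reached by 5 genes, Itgam, Cd163, C1qa, Csf1r and C1qb, against 4.93% of all genes (4 by DESeq2 and 4 by limma-voom). With RLE factors or the library total alone 2 genes reached that level, against 4.85% and 4.49% of all genes. C1qb was the single gene whose LERKO groups did not overlap, against 0.882% of all genes. Itgam had a log2 fold change of 0.94 (SE 0.37), Cd163 of 0.74 (SE 0.30), C1qa of 0.39 (SE 0.18) and Csf1r of 0.47 (SE 0.22), each with an adjusted p of 0.955 by edgeR.

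Without mature LERKO library 4, 24 of 31 genes were positive and the median was 0.17. The genes with an unadjusted p below 0.05 were then H2-Ab1, H2-Aa, H2-Eb1 and Cd74, the MHC class II genes, with log2 fold changes of 0.53, 0.44, 0.53 and 0.50 and an adjusted p of 0.815 (edgeR). They are 4 of 31 genes, against 5.82% of all genes. Fewer than 4 genes reached that level when any of mature control libraries 1, 3 and 4 (3 genes each), mature LERKO library 1 (2), or immature LERKO libraries 1 (1), 2 (2) and 3 (3) was left out. In those fits 4.39% to 7.12% of all genes reached it. The recruited myeloid genes had a median of 0.04 in LERKO mice against 0.74 in controls, and the resident genes 0.32 against 0.58. Both recruited medians are the value of 1 gene, Cx3cr1, which had 6 to 17 counts per library. The other recruited genes were split. Itgam was at 0.94 in LERKO mice against 0.85 in controls and Ccr2 at 0.15 against 0.18. Lyz2 was at 0.04 against 0.78 and Itgax at -0.19 against 0.23.

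Averaged over both genotypes, none of the 31 genes passed and 0% of all genes did. All 31 log2 fold changes were positive, against 55.3% of all genes, with a median of 0.41. An unadjusted p below 0.05 was reached by 20 genes, all higher in mature mice, against 7.92% of all genes in either direction and 5.43% in the higher direction (19 by DESeq2, 21 by limma-voom). Left out singly, the 16 libraries gave 15 to 23 genes at that level, against 5.67% to 11.6% of all genes, and medians of 0.32 to 0.46. Without immature control library 3, 15 genes reached it (7.99% of all genes), 30 were positive and the median was 0.32. Without mature LERKO library 4, 19 genes reached it (9.95% of all genes), 31 were positive and the median was 0.33. Csf1r had the smallest p, at 0.56 on the log2 scale (SE 0.15, adjusted p = 0.374, edgeR). Itgam was at 0.89 (SE 0.26, adjusted p = 0.385, edgeR), Vsig4 at 0.47 (SE 0.14, adjusted p = 0.411, edgeR) and Ptprc at 0.47 (SE 0.14, adjusted p = 0.433, edgeR). No gene had all 8 mature libraries above all 8 immature ones, against 0.0149% of all genes.

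**Figure D3:**
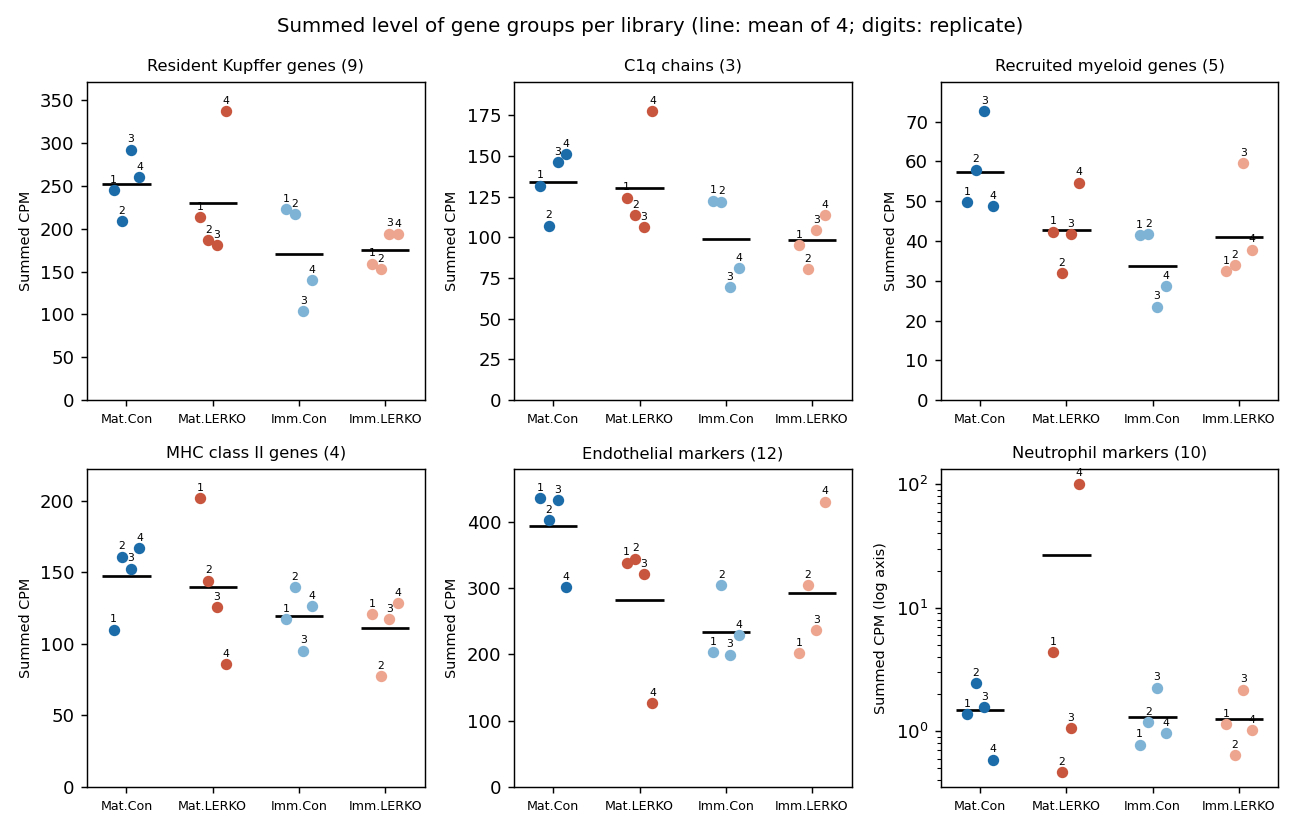
Points are summed CPM per library, numbered by replicate, in the 4 groups, for resident genes, C1q chains, recruited myeloid genes, MHC class II genes and the endothelial and neutrophil markers (the last on a log axis), with lines at the means. Mature LERKO library 4 is the highest for resident genes at 337 CPM and for neutrophil markers at 101.5 CPM, and the lowest for endothelial markers at 126.7 CPM.

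Knockout of Esr1 was accompanied by no called change of these genes at either stage. At each stage, and averaged over stages, edgeR called 1 gene of the whole table, which was Esr1 itself. The lack of calls is thus not particular to the myeloid genes. In mature mice 0 of 31 genes passed by edgeR, DESeq2 or limma-voom, against 0.00747% of all genes by edgeR, and 0 had an unadjusted p below 0.05 by any of them, against 7.3% of all genes by edgeR. The log2 fold change was positive for 6 of 31 genes, against 48.2% of all genes, with a median of -0.08 and of -0.13 for resident and -0.04 for recruited genes. The 95% interval lay within 2-fold in either direction for 28 of 31 genes, against 10870 of all 13379 genes. Lyz2 had the smallest p at -0.47 on the log2 scale (SE 0.24, adjusted p = 0.705, edgeR), followed by Ccr2 with 0.54 (SE 0.29, adjusted p = 0.711, edgeR). Timd4 was at -0.38 (SE 0.23) and Trem2 at -0.54 (SE 0.32), both with an adjusted p of 0.726 by edgeR.

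Some marker lists of other cells leaned 1 way in this comparison and others were mixed, with no gene called. Positive log2 fold changes were seen for 3 of 5 dendritic, 3 of 5 erythroid, 1 of 2 classical monocyte and 4 of 10 hepatocyte markers. They were also seen for 2 of 7 cholangiocyte, 1 of 5 B cell, 1 of 10 T and NK cell and 2 of 2 neutrophil markers. Muscle markers had 0 of 7 positive (median -9.09). Of 12 endothelial markers 0 had a positive log2 fold change (median -0.43), with summed levels of 127 to 344 CPM in mature LERKO livers and 301 to 436 CPM in controls. Of 10 stellate markers 0 were positive (median -0.67), while 10 of 10 acute-phase genes were (median 1.92). When mature LERKO library 4 was left out these were 1 of 12 (median -0.18), 0 of 10 (median -0.36) and 8 of 10 (median 0.30). Their part in the values of the myeloid genes was not tested.

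Without mature LERKO library 4 the median of the 31 genes was -0.20, -0.36 for resident and -0.41 for recruited genes, and 7 of 31 genes were positive. Lyz2 and Vsig4 then had an unadjusted p below 0.05, 2 of 31 genes against 8.78% of all genes. Their log2 fold changes were -0.58 and -0.41, with adjusted p-values of 0.56 and 0.569 (edgeR). That library held 24.4 CPM of 7 classical monocyte markers against 5.95 to 8.63 CPM in the other mature LERKO libraries, beside its neutrophil and acute-phase levels. Only 2 of the 7 had enough reads to be tested. With all libraries kept, their log2 fold changes were -0.06 and 0.20, so the sum does not show a rise of the markers as a set. The part of monocyte, neutrophil and acute-phase levels in the myeloid genes was not tested. Without immature LERKO library 3, whose removal alters the shared spread, 1 gene (Lyz2) had an unadjusted p below 0.05, against 7.77% of all genes. Over the 16 single omissions 5 to 14 genes were positive. With the library total alone, 2 genes were positive and the median was -0.14. Lyz2 and Timd4 then had an unadjusted p below 0.05, against 7.61% of all genes. Without the 3 libraries with most muscle transcripts 3 genes were positive and the median was -0.21. Mature control library 4, with 38.4 CPM of muscle transcripts, was kept there.

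In immature mice 0 of 31 genes passed by edgeR, DESeq2 or limma-voom, against 0.00747% of all genes by edgeR, and 0 had an unadjusted p below 0.05 by any of them, against 2.76% of all genes by edgeR. The log2 fold change was positive for 19 of 31 genes, against 53.2% of all genes, with a median of 0.03, of 0.04 for resident and of 0.29 for recruited genes. The 95% interval lay within 2-fold for 27 of 31 genes, against 11163 of all 13379 genes. Without immature control library 3 the median was -0.11 and 11 genes were positive. A single gene reached an unadjusted p below 0.05 when immature control library 1 (Cd68) or immature LERKO library 2 (Ccr2), 3 (Trem2) or 4 (Ccr2) was left out. In those fits 1.5% to 4.7% of all genes reached it. The 4 smallest p-values belonged to Ccr2 at 0.57 (SE 0.30), Trem2 at -0.55 (SE 0.33), Marco at 0.92 (SE 0.60) and Itgax at 0.38 (SE 0.28), each with an adjusted p of 1.00 by edgeR. Marco rested on immature LERKO library 4, and its log2 fold change was -0.15 without it.

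**Figure D4:**
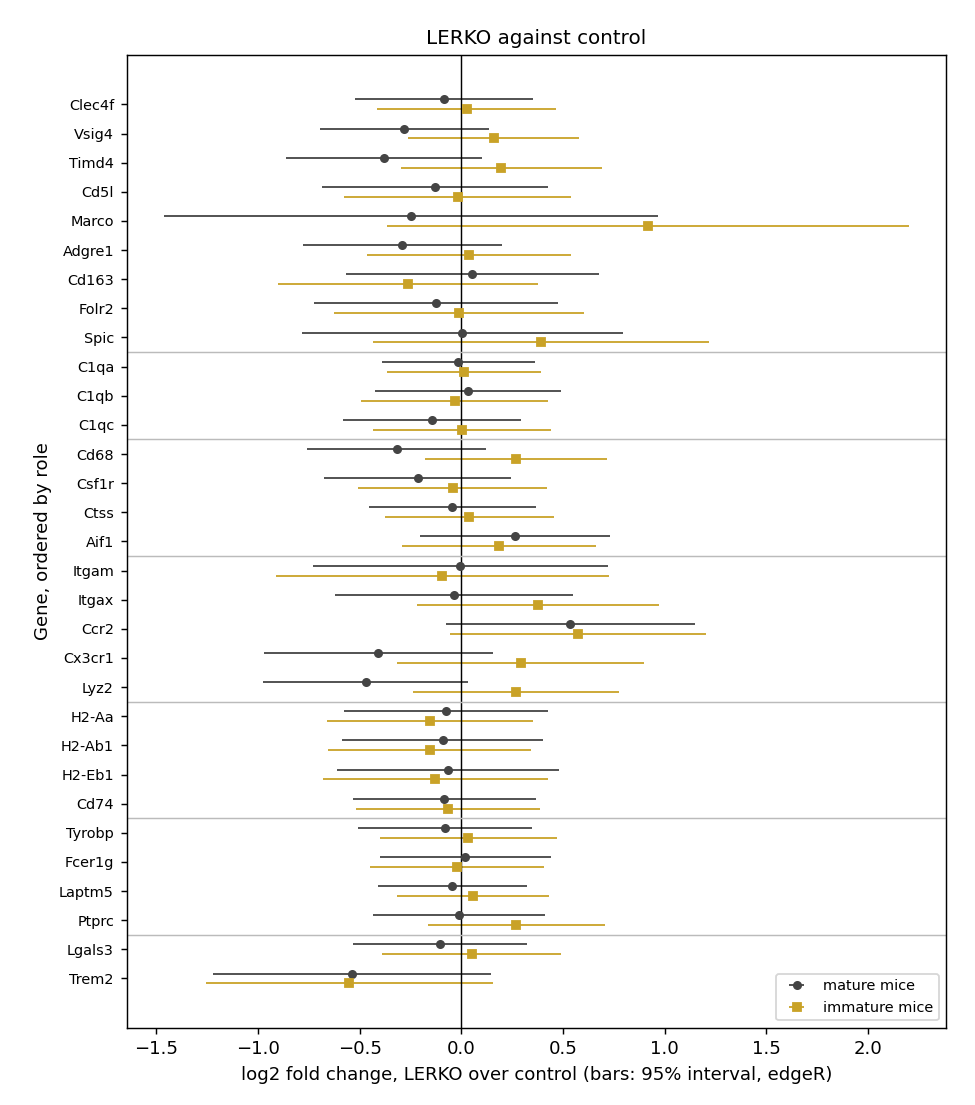
Points are log2 fold changes of LERKO over control mice for each tested gene, in mature (circles) and immature mice (squares), and bars are 95% intervals from edgeR. All bars cross 0, with Marco the widest, and Ccr2 is above 0 and Trem2 below 0 at both stages.

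Averaged over stages, 0 of 31 genes passed by edgeR, against 0.00747% of all genes, and 2 had an unadjusted p below 0.05 by edgeR, DESeq2 and limma-voom alike, against 3.69% of all genes by edgeR. Ccr2 had a log2 fold change of 0.55 (SE 0.21), higher in LERKO mice, and Trem2 of -0.54 (SE 0.23), lower in LERKO mice. Aif1 was at 0.22 (SE 0.16) and Ptprc at 0.13 (SE 0.14), and the adjusted p was 0.999 by edgeR for all 4. With each of the 16 libraries left out in turn, Ccr2 kept an unadjusted p below 0.05 every time, with log2 fold changes of 0.45 to 0.63. Those fits share most of their libraries, and Ccr2 was named for its smallest p, so this adds no separate support. Ccr2 had 11 to 38 counts per library. Trem2 lost that level without mature control library 3 or 4, mature LERKO library 2, immature control library 1, or immature LERKO library 2 or 4. This left 1 gene at that level, against 2.9% to 4.3% of all genes. The 95% interval of the averaged effect lay within 2-fold for 29 of 31 genes, against 12546 of all 13379 genes. Positive values were seen for 8 of 31 genes, against 50.9% of all genes, with a median of -0.05. The sign of this median did not hold: 17 genes were positive without mature LERKO library 3 (median 0.01), immature control library 1 (0.0062) or immature control library 2 (0.02). Without immature control library 3 the median was -0.11, and without the 3 libraries with most muscle transcripts it was -0.13 with 5 genes positive.

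The difference of the knockout effects between stages, mature minus immature, was tested in the same fit. It passed for 0 of 31 genes and for 0% of all genes, and 1 gene, Lyz2, had an unadjusted p below 0.05, against 6.35% of all genes (1 by DESeq2, 2 by limma-voom). Lyz2 differed by -0.74 (SE 0.34, adjusted p = 0.773, edgeR), Cd68 by -0.59 (SE 0.30, adjusted p = 0.774, edgeR), Timd4 by -0.58 (SE 0.33, adjusted p = 0.780, edgeR) and Cx3cr1 by -0.70 (SE 0.39, adjusted p = 0.798, edgeR), all on the log2 scale. A positive difference was seen for 9 of 31 genes, against 48.7% of all genes, with a median of -0.11. Without mature LERKO library 4, 5 genes had an unadjusted p below 0.05, against 8.06% of all genes. They were Marco, Lyz2, Timd4, Cd68 and Vsig4, with adjusted p-values of 0.591 to 0.600 (edgeR). With immature control library 1 or immature LERKO library 2 left out 2 genes reached that level, against 4.8% and 7.1% of all genes. No gene did without mature control library 2 or 3, mature LERKO library 1, 2 or 3, immature control library 3 or 4, or immature LERKO library 3. Without immature control library 3, 20 of 31 differences were positive and the median was 0.04. With the library total alone 1 of 31 was positive, and the median was -0.26 beside -0.13 over all genes. An unadjusted p below 0.05 was then reached by 4 genes (Lyz2, Timd4, Cd68 and Vsig4), against 8.0% of all genes. Over the single omissions 2 to 20 differences were positive, with medians of -0.29 to 0.04.

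Within a library some resident, C1q, macrophage and leukocyte genes varied little relative to Clec4f, and others did not. Over the 16 libraries the highest ratio to Clec4f was 1.25 times the lowest for Vsig4, 1.26 for C1qb, 1.30 for C1qc, 1.34 for Folr2, 1.35 for Ctss and 1.36 for C1qa. Among genes of the same roles it was 1.40 for Cd5l, 1.435 for Adgre1 and 1.48 for Csf1r. It was wider for Timd4 at 1.59, Cd68 at 1.60, Aif1 at 2.23 and Cd163 at 2.58. The leukocyte genes Laptm5 and Tyrobp, at 1.37 each, varied less than Cd5l and Adgre1. A narrow spread was thus not particular to the resident, C1q and macrophage genes. Ptprc was at 1.66 and Fcer1g at 1.78. The spread was 1.88 for Lyz2 and wider for Cd74 at 3.18, H2-Ab1 at 3.87, H2-Eb1 at 4.35, H2-Aa at 4.47 and Marco at 6.24. With mature LERKO library 4 left out it was 2.04 for Cd74, 2.28 for H2-Ab1, 2.46 for H2-Eb1 and 2.30 for H2-Aa. Without the 3 libraries with most muscle transcripts it was 4.13 for Marco. These ratios share the reads of 1 library and do not depend on its scaling. The levels of Clec4f itself differed 2.86-fold between the extreme libraries, so Vsig4, C1qb and C1qc varied less against Clec4f than Clec4f varied between libraries.

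Recruited and resident genes were compared as sums. The 5 recruited genes over the 9 resident genes gave a ratio of 0.229 ± 0.0412 in mature control, 0.191 ± 0.0307 in mature LERKO, 0.203 ± 0.0182 in immature control and 0.232 ± 0.0512 in immature LERKO livers (SD, n = 4), and the group ranges overlapped. Without library 4 the mature LERKO ratio was 0.20 ± 0.0298, and without library 3 the immature control ratio was 0.194 ± 0.00916 (SD, n = 3). With Lyz2 left out the ratio was 0.0156 ± 0.00289, 0.0182 ± 0.00335, 0.0170 ± 0.00335 and 0.0199 ± 0.00309 in that order. The MHC class II sum over the resident sum ranged from 0.254 in mature LERKO library 4 to 0.946 in mature LERKO library 1, while the C1q sum over the resident sum stayed between 0.501 and 0.672.

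Wider lists of macrophage genes held no called gene in any of the 7 comparisons. Between mature and immature controls, 19 of 22 scavenger and phagocytic receptor genes had positive values, with a median of 0.50 and 12 at an unadjusted p below 0.05, beside 53.1% positive and 9.84% at that level over all genes. Among 20 genes of myeloid signalling all 20 were positive (median 0.38), with 8 at that level, and Lcp1, an actin-bundling protein of leukocytes, was at 68.0 ± 5.83 and 60.2 ± 6.88 CPM. All 8 tested growth factor and receptor genes were positive (median 0.51), as were 11 of 16 transcription factor genes (median 0.38), 10 of 11 chemokine and cytokine genes (median 0.36) and 9 of 10 genes of MHC class II processing (median 0.33). The 12 genes of lipid-associated macrophages were split, with 8 positive and a median of 0.05. The numbers at an unadjusted p below 0.05 were 3 of 8 growth factor genes, 5 of 16 transcription factor genes, 2 of 11 chemokine and cytokine genes, 1 of 10 genes of MHC class II processing and 0 of 12 lipid-associated genes. Without immature control library 3, 6 of 22 scavenger receptor genes (median 0.39) and 4 of 20 signalling genes (median 0.28) were at that level, against 9.83% of all genes. Without the 3 libraries with most muscle transcripts 6 of each were, against 4.08% of all genes. For mature LERKO against control, 3 of 8 growth factor and 3 of 16 transcription factor genes had an unadjusted p below 0.05 by edgeR. So did 2 of 11 chemokine and cytokine genes and 1 of 12 lipid-associated genes, against 7.3% of all genes. The other lists held 0, and mature LERKO library 4 was kept. In immature mice 1 of 8 growth factor and 1 of 16 transcription factor genes did, against 2.76% of all genes. Csf1, the ligand of Csf1r, was at 12.6 ± 0.969 CPM in mature control, 16.4 ± 2.60 in mature LERKO, 9.78 ± 0.991 in immature control and 10.9 ± 1.68 CPM in immature LERKO livers (SD, n = 4).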

How the data were processed

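RNA of 16 mouse livers was read as 1 stranded, paired-end mRNA library per mouse, per the labels' protocols. The authors deposited 1 table of counts per gene and library that show no sign of normalization. In 2 predicted genes 10 deposited values were not whole, as in estimated counts, and were rounded. The submitters' processing notes name STAR, limma, R 4.05 and the build mm10 without their roles. The counting program and its handling of strand and shared reads were not given in those notes or the labels. No 2 libraries were identical.

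In R 4.3.3, genes were kept by filterByExpr of edgeR 4.0.16 (minimum count 10, minimum total 15), which left 13379, scaled by TMM (0.852 to 1.07) and fitted with glmQLFit in 1 model of 4 groups. Benjamini-Hochberg adjustment ran over all tested genes, and a gene was called at an adjusted p below 0.05. The common biological coefficient of variation was 21.2%, which limits the precision of single genes. Each standard error is the size of the log2 change over the root of its F statistic, and intervals are 95%. The fit was tested on simulated data. Alternatives were DESeq2 1.42.0, limma-voom (limma 3.58.1), RLE factors, library size alone, no filter, 1 CPM in 4 libraries, the compared groups alone, an adjusted p of 0.1, and each library left out. Chosen after seeing the data were the fit without the 3 libraries with most muscle transcripts, and the ratios and wider lists without the libraries that stood apart. All members are named with levels. Fold changes are given for called members and the 4 with the smallest p per comparison, and others were named after their values were seen. Of the wider lists at most the 2 highest members may be named. The members and lists were chosen with earlier results of these data known. Gene positions are GENCODE vM21 on GRCm38, where 35465 identifiers matched.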

Additional observations from a re-analysis of the deposited data

Results flagged for a closer look

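In 4 libraries of a group, a library was singled out where its gap to the nearest other exceeded Dixon's 95% critical value of the range. Chance alone marks about 1 in 20 groups, and 128 groups of 4 libraries were examined for single genes, of which 8 were marked. Clec4f was at 111.9 CPM in mature LERKO library 4, against 67.7 to 73.7 CPM in the other 3. Marco was at 15.5 CPM in immature LERKO library 4, against 2.29 to 3.59, and at 2.01 CPM in immature control library 3, against 3.58 to 3.63. Timd4 was at 9.07 CPM in mature control library 3, against 6.04 to 6.44. Cx3cr1 was at 0.536 CPM in mature control library 3, against 0.697 to 0.715, and at 0.511 CPM in immature control library 4, against 0.352 to 0.363. H2-Aa was at 11.8 CPM and H2-Eb1 at 11.4 CPM in immature LERKO library 2, against 20.3 to 21.4 and 16.8 to 17.4.

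Summed levels were singled out by the same measure in 5 of 104 groups examined. Most of these marks are of 1 library, mature LERKO library 4, so they are not independent and their share cannot be set against chance. Mature LERKO library 4 held 24.4 CPM of classical monocyte markers (5.95 to 8.63 in the other 3), 101.5 CPM of neutrophil markers (0.464 to 4.37), 126.7 CPM of endothelial markers (321 to 344) and 99910 CPM of acute-phase genes (11560 to 13740). Of the 7 monocyte and 10 neutrophil markers, 2 each had enough reads to be tested. Immature LERKO library 4 held 105.9 CPM of muscle markers, against 0.427 to 0.892 in the other 3.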

How the results depend on the processing

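No member was called in any of 172 alternatives over the 7 comparisons. Of the medians of all members, the resident and the recruited genes, 488 moved by less than the spread between replicates and 7 moved by more, all of them of the 5 recruited genes. With a filter of 1 CPM in 4 libraries the recruited median was 0.50 between control stages and -0.22 for the difference of knockout effects. With each library left out in turn it ranged from -0.41 to 0.077 for mature LERKO against control, from -0.073 to 0.27 between LERKO stages, and from -0.61 to -0.25 for the difference of knockout effects. The log2 fold change of Marco for immature LERKO against control, 0.92, was -0.15 without immature LERKO library 4. It was -0.15 without the 3 libraries with most muscle transcripts, and 1.19 at the other end of the range. Genes called in the whole table numbered 27 with DESeq2 for mature LERKO against control (1 with edgeR), 13 in immature mice (1), 74 between control stages (0), 6 between LERKO stages (0), 3 for the averaged knockout effect (1), 29 for the averaged stage effect (0) and 22 for the difference of effects (0), none of them a member. With only the compared groups in the fit, 6 genes were called between control stages. Without mature LERKO library 1 the table held 2 called genes for mature LERKO against control and 1 between LERKO stages, and without mature LERKO library 4 1 between control stages. Scaling by library size alone moved the median of all genes between control stages to 0.10, from 0.02. No paired analysis was possible because the labels carry no replicate numbers. Depth limits the low genes: Cx3cr1 and Trem2 had 6 counts in their lowest library.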
